A study of Mus musculus with 96 samples.

Results

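Solute carriers are membrane proteins that move amino acids, sugars, nucleosides, metals, vitamins and ions across the plasma membrane and the membranes of organelles. They are sorted by sequence into numbered Slc families, most of which handle a common kind of cargo. In myeloid cells they are known for supplying arginine for nitric oxide synthesis, for moving peptides and nucleosides out of lysosomes, and for sharing out copper, zinc and iron, which microbes also need. The members described here were the genes whose array annotation gave a single symbol made of Slc and a number, and whose probe set exceeded an intensity of 100 on at least 1 array. The rule left out Slc40a1, Slc11a1, Slc7a11, Slc3a2, Slc2a1, Slc2a6, Slc16a3 and Slc25a24, of which 7 were on the array. Of the 207 Slc genes on the array, 90 were members, 55 were measured but stayed at or below 100, and 55 lay at the lowest value of the table, 20, on every array. Where a gene had several probe sets, the 1 with the highest mean was used.

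The cells were primary dendritic cells grown from mouse bone marrow, which is how the labels name them, and 96 one-colour Affymetrix mouse arrays measured their total RNA. Ligands of Toll-like receptors, which sense microbial products, were labelled Lps, Pic, Pam, Cpg and Grd. From knowledge of the study, Lps is lipopolysaccharide and acts on TLR4, Pic is poly(I:C) and acts on TLR3, and Pam is a lipopeptide that acts on TLR2. Cpg is a CpG oligonucleotide that acts on TLR9, and Grd is gardiquimod, which acts on TLR7. RNA was taken at 9 times between 0.5 and 24 h after each ligand, with 2 arrays per ligand and time apart from Cpg at 16 and 24 h, which had 1 each. The 8 unstimulated Control arrays were taken between 0 and 24 h, 1 at each of the same times except 0.5 and 16 h, and 1 at 0 h. The labels give no strain, dose, sex or age, and do not say whether arrays of 1 group were separate cultures, so p-values measure the spread between these arrays, which may be technical.

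Array medians lay between 48.75 and 59.5. On the log2(value + 1) scale, 2 arrays of 1 group correlated at 0.9852 to 0.9982 across the genes and unnamed probe sets tested. Dendritic and myeloid markers were high throughout, with Cd74 at 5594.2 to 8438.6 and Itgax at 1116.5 to 4877.8, although the dendritic cell genes Flt3 (up to 42.0) and Zbtb46 (up to 183.3) were low. The measured B cell, NK cell and erythroid markers stayed at 20 on every array, summed T cell markers reached 46.9 at most, and summed mast cell and basophil markers 68.0. Summed granulocyte markers ran from 89.0 to 308.9 on ligand arrays and from 152.8 to 184.7 on Control arrays. The fibroblast gene Dcn, the only 1 of its list on the array, ranged from 20.1 to 264.0 on ligand arrays and from 20.5 to 29.0 on Control arrays, and the plasmacytoid gene Tcf4 from 44.9 to 592.7 and from 46.7 to 83.1. Their part in the results below was not tested. In RNA of whole cultures, fewer cells of a type and less RNA per cell cannot be told apart. By the plate positions in the labels, a plate column held a single time of Lps, Pic, Pam and Grd together. For these ligands place on the plate cannot be told apart from time, nor from ligand against Control. In sample order, each pass over the columns held only 1 of these ligands, so ligand may also go with plate row. Comparisons between ligands were not separated from such an effect of place. The Cpg and Control arrays shared 3 other columns, each with 1 time of every Cpg window. Within each shared column, 33 of the 35 called differences between Cpg and Control had the direction of the whole comparison. The exceptions were early rises of Slc41a1 and Slc7a2, each lower than Control in the column that held the 0.5 h Cpg arrays (-0.15 and -0.22). These differences were called on the same arrays, so most of the agreement follows from the calling itself. The share over all items was not computed, and no conclusion on plate column is drawn from the agreement.

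Times were read in 3 windows, early (0.5, 1 and 2 h), middle (4, 6 and 8 h) and late (12, 16 and 24 h). Each window of a ligand was set against the mean of all 8 Control arrays on the log2(value + 1) scale, in 1 limma model over all 96 arrays. A gene was called at a Benjamini-Hochberg adjusted p under 0.05 over the 10543 genes and unnamed probe sets tested, with a log2 difference of at least 1. All 15 comparisons use the same Control arrays. Differences are given as log2 ligand minus Control with the standard error of the fit.

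Among the 90 solute carriers, 20 were called higher in at least 1 window, 17 lower and 53 in none, and no member was called in opposite directions. These were 22.2% and 18.9% of the members, against 11.1% called higher and 12.7% lower over everything tested, and 14.8% and 16.2% over the 7340 items that also exceeded 100 on an array. The level of 100 itself shapes these counts. Of the 11 members that exceeded 100 only in stimulated cells, 8 were called higher and 1 lower, whereas of the 79 above 100 on a Control array 12 were called higher, 16 lower and 51 in none. Members at the edge of the rule were Slc66a2, whose highest array read 102.9, and Slc6a9 (117.9), and the nearest genes left outside it were Slc7a5 (99.3) and Slc39a9 (98.1).

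Amino acid and metal carriers held most of the members called higher. The 17 members of amino acid and peptide families held 8 of the members called higher and 3 called lower, and the 15 metal carriers held 5 and 1. Of the 19 members of family Slc25, the carriers of the mitochondrial inner membrane, 5 were called higher and 2 lower. Nucleoside and nucleotide sugar carriers (16 members) had 1 called higher and 3 lower, and vitamin, lipid, choline and heme carriers (8 members) had 1 of each. None of the 4 sugar and carboxylate carriers was called higher and 3 were called lower. Carriers of inorganic ions (7 members) had 0 higher and 2 lower, both Slc66 members were called lower, and neither organic ion carrier, Slc22a5 and Slc22a23, was called. These are counts of named genes, with no test of 1 class against another. Shares called higher and lower were 11.1% and 12.7% over all items tested, and 14.8% and 16.2% over items above 100. Of the members called higher, Slc1a2, Slc6a4, Slc6a9, Slc6a13, Slc39a14, Slc25a25, Slc25a33 and Slc28a2 exceeded 100 only in stimulated cells. The rule took these in through arrays on which they were high. Of the 17 amino acid members, 12 exceeded 100 on a Control array.

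**Figure D1:**
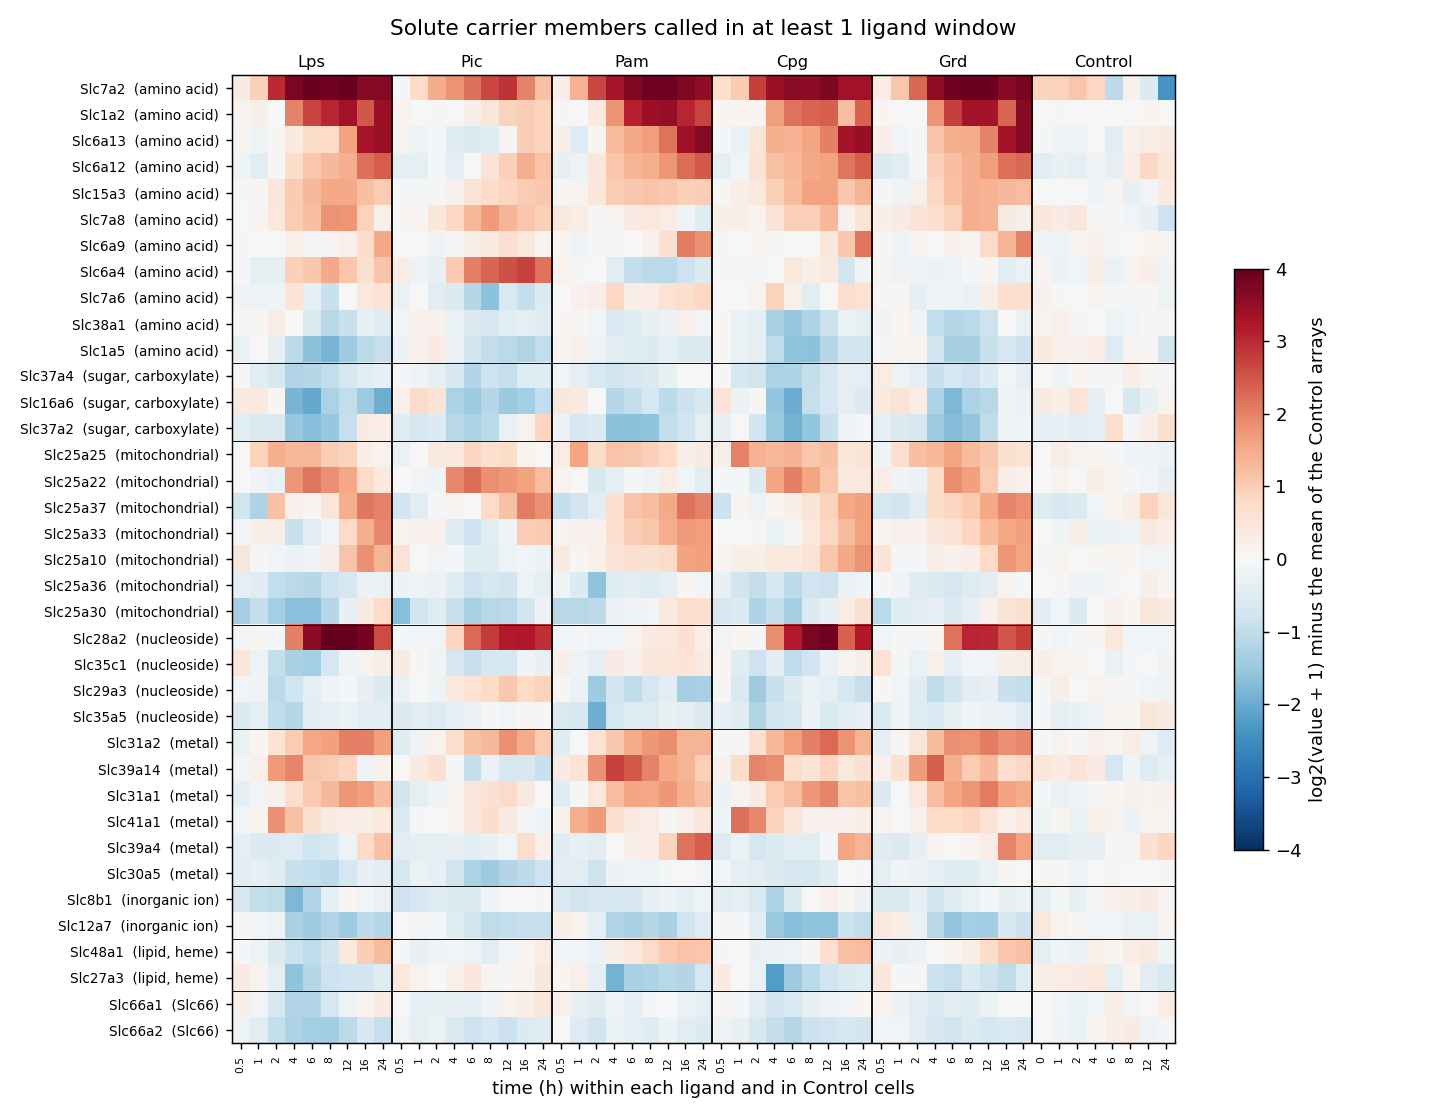
Log2(value + 1) minus the Control mean for the 37 members called in at least 1 window (rows, grouped by transporter class), by time within each of the 5 ligands and on the 8 single Control arrays (columns). Red is higher and blue lower than the Control mean, and the scale stops at 4 in either direction. Slc7a2, Slc1a2, Slc6a13 and Slc28a2 hold the deepest red, Slc28a2 stays pale with Pam, and Slc7a2 pales and turns blue along the Control columns.

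Few members were called early and most in the middle and late windows. Beside each count stand the shares called the same way among all items tested and, after it, among items above 100 on any array. With Lps, early calls were 1 higher (1.57% and 2.23%) and 1 lower (0.55% and 0.708%). The middle window of Lps had 12 higher (7.05% and 9.59%) and 12 lower (8.22% and 10.4%). Late Lps arrays had 11 higher (4.7% and 6.55%) and 3 lower (4.42% and 5.69%). Rises and falls were equally many in the middle window, and rises prevailed late. Of the 12 middle rises, 5 were of members above 100 only in stimulated cells. The 79 members above 100 on a Control array had 7 higher and 12 lower there. With Pic, early calls were 0 higher (0.617% and 0.886%) and 1 lower (0.247% and 0.354%). The middle window of Pic had 6 higher (4.93% and 6.85%) and 5 lower (2.79% and 3.53%). Late Pic arrays had 8 higher (4.53% and 6.27%) and 3 lower (4.0% and 5.26%). No member rose early with Pic. With Pam, early calls were 2 higher (1.65% and 2.33%) and 2 lower (0.74% and 0.981%). The middle window of Pam had 9 higher (3.48% and 4.78%) and 3 lower (4.0% and 5.23%). Late Pam arrays had 13 higher (3.42% and 4.77%) and 1 lower (2.97% and 3.91%). Late rises with Pam far outnumbered late falls. With Cpg, early calls were 3 higher (1.85% and 2.64%) and 0 lower (0.294% and 0.341%). The middle window of Cpg had 11 higher (5.4% and 7.53%) and 7 lower (5.53% and 7.02%). Late Cpg arrays had 13 higher (3.86% and 5.46%) and 1 lower (3.23% and 4.22%). The same order held late with Cpg. With Grd, early calls were 1 higher (0.948% and 1.34%) and 0 lower (0.171% and 0.245%). The middle window of Grd had 12 higher (4.53% and 6.4%) and 5 lower (3.92% and 5.08%). Late Grd arrays had 13 higher (3.84% and 5.38%) and 0 lower (2.88% and 3.8%). No member fell early or late with Grd. In the late window of Pam, Cpg and Grd the members called higher outnumbered those called lower. Over all items and over items above 100 the share called higher also exceeded the share called lower with each, though by less. Of the 13 late rises with each of these ligands, 5 were of members above 100 only in stimulated cells. The 79 members above 100 on a Control array had 8 higher with each, and 1, 1 and 0 lower. The median member nevertheless moved little, with a late difference of -0.02 for Lps, -0.01 for Pic, and -0.04 for Pam, and nearer 0 for Cpg and Grd. In the middle window of Lps the median member lay at -0.33, against -0.11 over all items and -0.18 over items above 100.

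Arrays of stimulated cells had lower medians than Control arrays, and centring each array on its median changed some splits. The shift it removed ran from -0.25 in the middle window of Lps to -0.02 in the late window of Grd on the log2 scale. With centring, 15 members were called higher and 6 lower in the middle window of Lps, 6 and 3 in that of Pic, 11 and 1 in the late window of Pic, and 4 and 0 in the early window of Pam. Falls of about 1 on the log2 scale in the middle window of Lps are therefore to be read against a shift of -0.25.

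**Figure D2:**
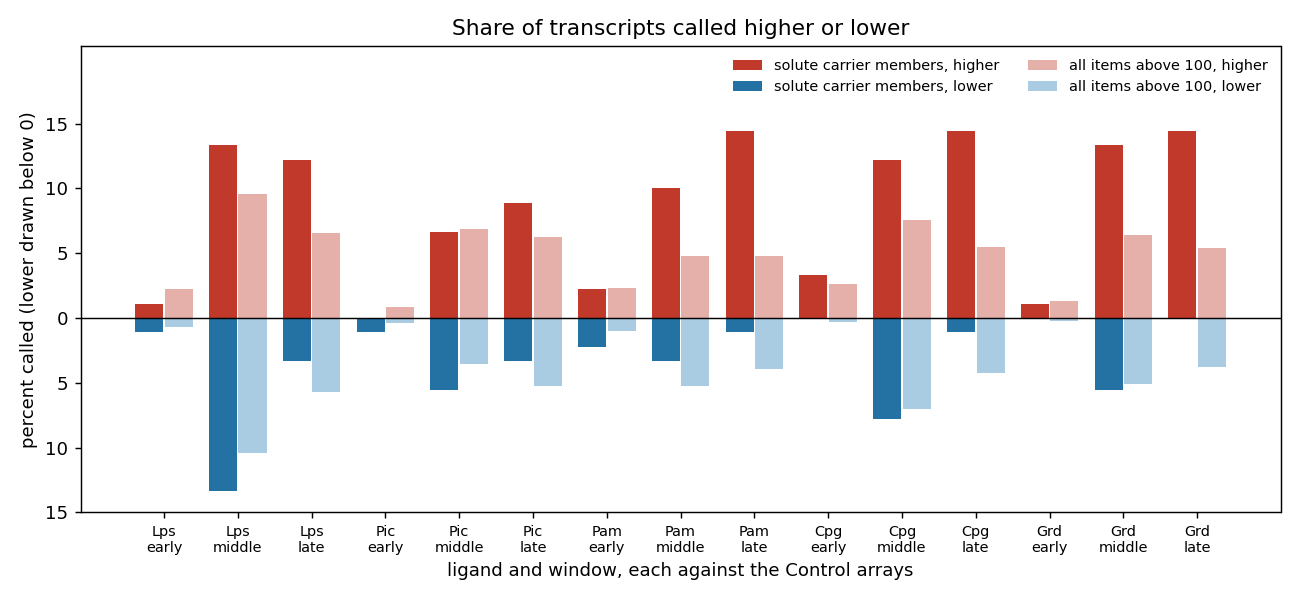
Percent of the 90 solute carrier members (dark bars, left of each pair) and of all 7340 items above 100 on any array (pale bars) called higher (red, above 0) or lower (blue, drawn below 0) in each ligand and window (x axis), against the Control arrays. The dark red bars exceed the pale red ones in the late window of each ligand, and 1 member at most was called in either direction in the early windows of Lps, Pic and Grd.

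The largest difference in any of the 15 windows was that of Slc7a2 with Lps. Slc7a2 is the cationic amino acid transporter that takes up arginine, lysine and ornithine and is known for feeding inducible nitric oxide synthase in macrophages. Its middle-window intensity was 2158.5, 2353.8 and 2503.7 (lowest, median and highest of 6 arrays) with Lps, against 206.6 ± 122.3 on the Control arrays (SD, n = 8, range 30.9 to 350.2). The difference was 3.85 ± 0.25, with an adjusted p of 1e-19 in limma. No Lps array of the window overlapped the Control arrays. With Pic the middle window held only 556.7, 749.0 and 1109.8, a difference of 2.23 ± 0.25, and Pam, Cpg and Grd reached 3.63, 3.54 and 3.78. The other probe sets of Slc7a2 gave 3.66 and 3.74 for Lps and 2.28 and 2.63 for Pic in that window.

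Slc7a2 also read lower on the later Control arrays. Control intensities were 301.7 at 0 h, 309.5 at 1 h, 350.2 at 2 h, 290.3 at 4 h, 76.9 at 6 h, 183.0 at 8 h, 110.6 at 12 h and 30.9 at 24 h, a fitted change of -3.13 ± 0.83 whose adjusted p of 0.054 missed the threshold. Early calls of Slc7a2 with Lps (1.42), Pam (1.44), Cpg (1.51) and Grd (1.24) rested on the 2 h arrays, which read 1212.6 and 1353.1 with Lps, while the 0.5 h arrays read 187.6 and 221.0. Without the 2 h arrays those 4 differences were 0.64, 0.82, 0.88 and 0.71, and once a linear time trend was fitted in the Control group they were 0.51, 0.53, 0.60 and 0.33. The middle and late calls of Slc7a2 held under every alternative tried.

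Slc1a2, a sodium-driven glutamate transporter best known from astrocytes, read 74.6, 138.3 and 191.6 (lowest, median and highest) in the middle window of Lps, against 20.4 ± 0.7 on the Control arrays (SD, n = 8, up to 21.7), which lay at or near the floor. This was a difference of 2.58 ± 0.06 (adjusted p 7.7e-39 in limma). Pam (2.77), Grd (2.63) and Cpg (2.05) raised it as well, while Pic arrays stayed at a difference of 0.24 in the middle window and 0.93 late. Every array of these 4 ligands in the window lay above all Control arrays. With Lps the 16 h arrays dipped, reading 110.7 and 128.8, against 228.6 and 211.5 at 12 h and 221.8 and 245.0 at 24 h. A dip at 16 h also stood in the Cpg array (49.0) and the Grd arrays (100.7 and 113.7), but Pam arrays read 169.4 and 182.4 at 16 h and 127.1 and 150.7 at 24 h. Because Control arrays sit at the floor of 20, the size of such a difference depends on that floor.

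Family Slc6, the sodium- and chloride-driven transporters of neurotransmitters and osmolytes, held 4 members that rose. Slc6a13, a carrier of GABA, taurine and betaine in mouse, rose most in the late window. Its late intensities were 122.5, 433.3 and 498.4 with Lps, against 44.1 ± 8.5 on the Control arrays (SD, n = 8). The late differences were 2.77 ± 0.10 with Lps, 3.07 with Pam, 2.96 with Cpg and 2.98 with Grd, whereas Pic gave 0.64. It was called in the middle window too with Pam (1.49), Cpg (1.47) and Grd (1.36). With Lps the arrays read 78.8 and 74.0 at 8 h, 148.4 and 122.5 at 12 h and 413.5 and 453.1 at 16 h, so most of the rise came after 12 h. Slc6a12, which carries betaine and GABA, rose late by 2.03 with Lps, 2.15 with Pam, 2.05 with Cpg and 2.05 with Grd, and by 1.18 with Pic, against a Control mean of 140.0. Apart from Pic (0.04) it was called in the middle window as well, at 1.05 to 1.34. The lowest of these, with Lps, was lost against a Control trend (0.96), with log2(value + 16) (0.97) and without the 8 h arrays (0.94), and also without 1 Lps array at 8 h or the Control array at 0 or 2 h. The Control arrays themselves read 99.1 at 0 h, 235.2 at 12 h and 186.5 at 24 h. Its late call with Pic was lost against the Control arrays of the same times (0.40). Slc6a9, the glycine transporter, lay near the floor up to 8 h and was highest at 16 and 24 h. At those times Pam arrays read 117.9 and 80.0, then 91.7 and 74.5, against 22.7 ± 2.1 on the Control arrays, for a late difference of 1.52 ± 0.14. Cpg (1.22) and Grd (1.36) were called as well. A second probe set of Slc6a9 lay near the floor (mean 20.1), and the mean of both ended all 3 calls (0.62 to 0.76). The call with Cpg rested on the single 24 h array of that ligand (102.7), without which the difference was 0.76.

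The promoter of Slc6a13 is shown because it was the only member promoter with the word of GGGAA, any base and TTCC, which is bound by NF-kappaB factors. Of the 90 members, 71 had an entry in the RefSeq promoter table (GRCm38.p6), with 106 promoters of 250 bases before and 50 after a start, and Slc7a2 had none. Both strands were searched, and 0.943% of the member promoters and 0.341% of all 32851 promoters held the word. The window below, chr6:121303389-121303688 on the plus strand, is 1 of 3 listed for Slc6a13, and capitals mark the word.
Slc6a13: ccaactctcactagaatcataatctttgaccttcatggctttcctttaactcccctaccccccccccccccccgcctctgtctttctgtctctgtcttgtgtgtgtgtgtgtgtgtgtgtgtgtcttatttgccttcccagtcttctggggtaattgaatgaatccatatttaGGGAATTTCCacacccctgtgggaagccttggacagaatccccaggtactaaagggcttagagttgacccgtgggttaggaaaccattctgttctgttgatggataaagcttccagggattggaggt

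Slc6a4, the serotonin transporter, rose with Pic and, less, with Lps. With Pic its late intensities were 295.8, 387.0 and 444.1, against 65.5 ± 9.7 on the Control arrays (SD, n = 8), a difference of 2.49 ± 0.10 (adjusted p 2.5e-29 in limma). Its middle-window difference was 1.78 with Pic and 1.17 with Lps, and the values for Cpg (0.24), Grd (-0.16) and Pam (-0.83) did not pass. No Pic array of either window overlapped the Control arrays.

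**Figure D3:**
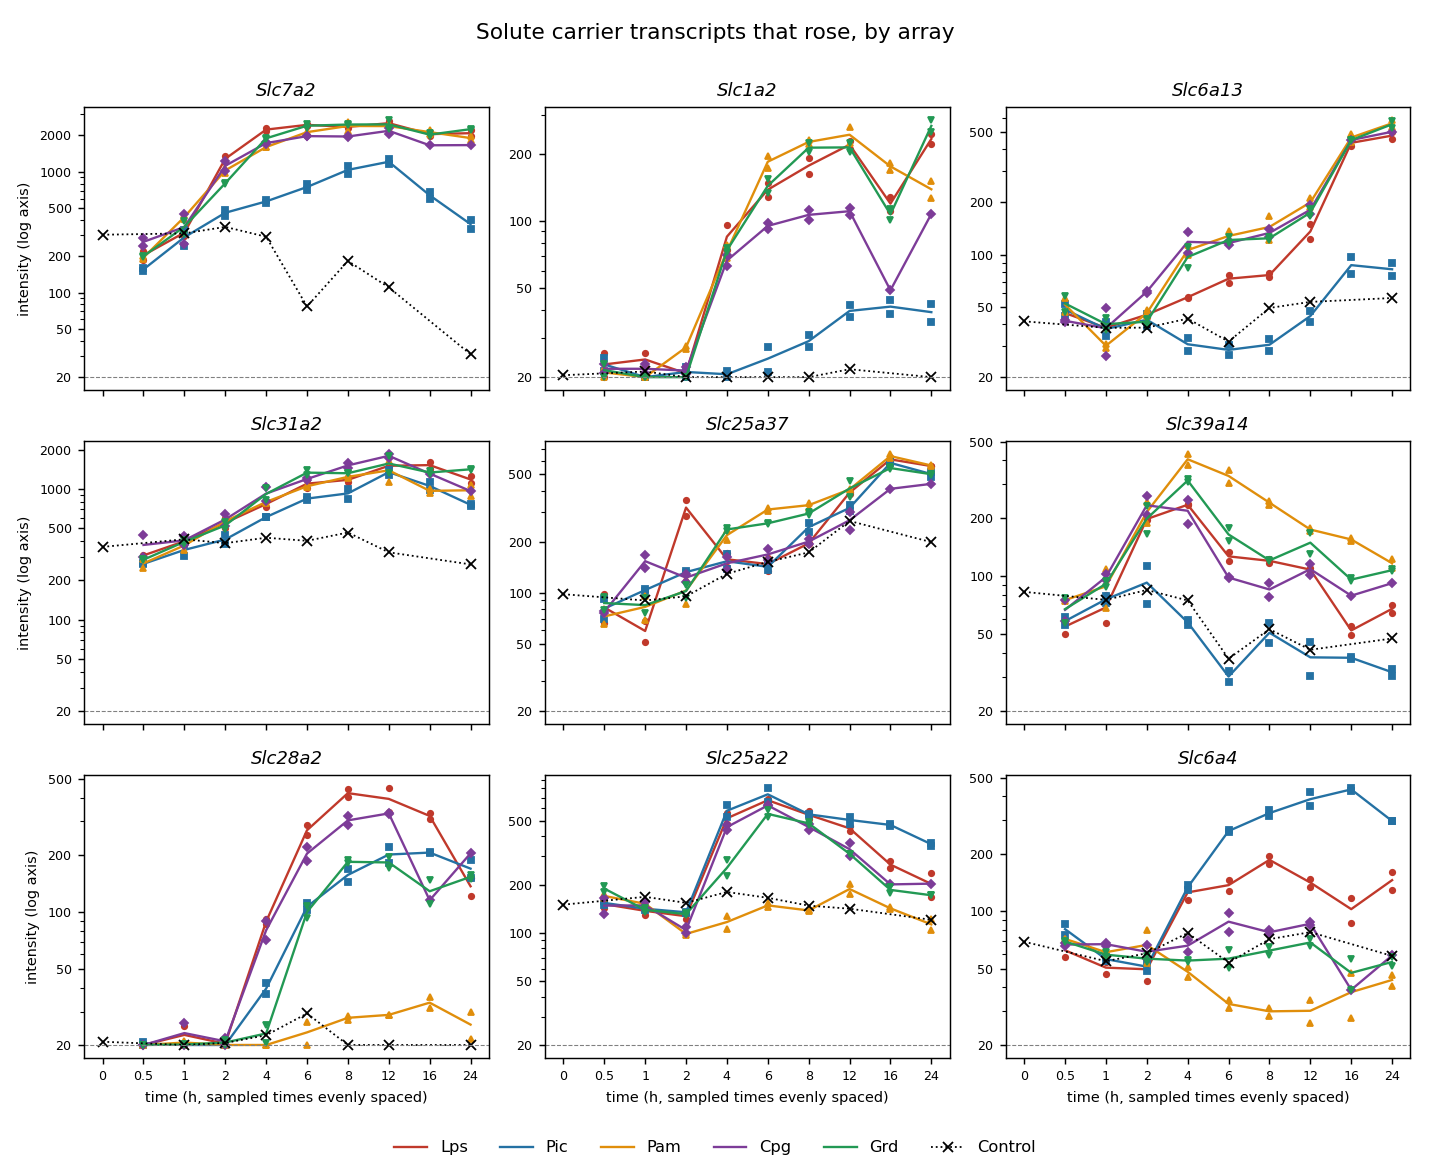
Intensity (log axis) of 9 solute carriers that rose, against time (sampled times evenly spaced), with a point per array and a line through the mean of each ligand, and crosses for the single Control arrays. The dashed line is the floor of 20. Slc28a2 stays near the floor with Pam, Slc1a2, Slc6a13 and Slc39a14 are lowest with Pic, and Slc6a4 is highest with Pic.

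Other amino acid and peptide carriers moved less. Slc15a3, a proton-driven peptide and histidine transporter of the lysosome, read 2448.9, 2918.4 and 3504.7 in the middle window of Lps, against 1203.3 ± 169.8 on the Control arrays (SD, n = 8), a difference of 1.29 ± 0.05. It was called in the middle and late windows of Lps, Cpg and Grd and in the middle window of Pam, at 1.08 to 1.35, and read 0.47 and 0.98 with Pic. Its relative Slc15a4 was called in no window, with differences of -0.67 in the middle window of Lps and 0.78 in the late window of Pic. Slc7a8, a carrier of neutral amino acids, was called with Lps (1.34), Pic (1.27) and Grd (1.00) in the middle window and with Pic late (1.14). The Grd call of Slc7a8 did not hold when any 1 of several arrays was left out.

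The 3 amino acid carriers that fell were Slc1a5, Slc38a1 and Slc7a6. Slc1a5, a glutamine and neutral amino acid exchanger, read 48.9, 63.8 and 101.5 in the middle window of Lps, against 207.6 ± 50.5 on the Control arrays (SD, n = 8), a difference of -1.51 ± 0.10 (adjusted p 2.5e-19 in limma). It also fell with Cpg (-1.42) and Grd (-1.14) in that window and late with Lps (-1.15) and Pic (-1.10), and both late calls were lost with a Control trend (-0.81 and -0.76). Slc38a1, another glutamine carrier, fell with Cpg (-1.35) and Grd (-1.07) in the middle window, where Lps gave -0.57, and the Grd call was lost with centring (-0.94). Slc7a6, an exchanger of cationic for neutral amino acids, fell with Pic in the middle window (-1.10, lost with centring at -0.96), where Pam read 0.46. The glutamine carriers Slc38a2 and Slc38a10, the taurine transporter Slc6a6, the creatine transporter Slc6a8 and Slc7a7, another exchanger of cationic amino acids, were called in no window.

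Mitochondrial carriers showed 5 members that rose and 2 that fell, and 12 were called in no window. Slc25a22, which imports glutamate into mitochondria, rose in the middle window, reading 526.2, 593.0 and 805.7 with Pic, against 153.6 ± 18.2 on the Control arrays (SD, n = 8), a difference of 2.00 ± 0.07 (adjusted p 1.8e-31 in limma). Lps (1.91), Cpg (1.73) and Grd (1.41) raised it in the same window, and with Pam it read -0.19. It stayed called late with Pic only, at 1.52, while Lps gave 0.91 and the difference between Pic and Pam late was 1.60 ± 0.07. No array of Lps, Pic, Cpg or Grd in the middle window overlapped the Control arrays.

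The promoter of Slc25a22 is shown because it was the only member promoter with the word of GAAA, any 2 bases and GAAA, that of interferon response elements. It stood on either strand in 0.943% of the member promoters and in 3.44% of all 32851 promoters. The window, chr7:141435326-141435625 on the minus strand of GRCm38.p6 (RefSeq), is 1 of 3 listed for the gene, and capitals mark the word.
Slc25a22: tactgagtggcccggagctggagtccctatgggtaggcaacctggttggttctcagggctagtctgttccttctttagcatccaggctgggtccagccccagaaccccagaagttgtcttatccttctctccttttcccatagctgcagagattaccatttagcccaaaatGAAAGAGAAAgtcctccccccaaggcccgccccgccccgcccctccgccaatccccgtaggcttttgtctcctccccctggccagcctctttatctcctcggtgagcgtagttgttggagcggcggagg

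Slc25a25, a calcium-regulated carrier of ATP-Mg and phosphate, rose within 1 h of Cpg. With Cpg its arrays read 49.6 and 49.3 at 0.5 h, 177.8 and 158.4 at 1 h and 119.6 and 106.0 at 2 h, against 42.2 ± 5.5 on the Control arrays. It was called early with Cpg (1.20) and in the middle window with Grd (1.39), Cpg (1.25), Lps (1.22) and Pam (1.05), and read 0.65 there with Pic. Early, Pic lay below Cpg by -1.18 ± 0.09. The early Cpg call was lost without the 1 h arrays (0.82).

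Carriers of iron, dicarboxylates and pyrimidine nucleotides rose late. Slc25a10, the dicarboxylate carrier, reached 356.5, 414.8 and 582.7 in the late window of Lps, against 161.9 ± 10.9 on the Control arrays (SD, n = 8), a difference of 1.44 ± 0.06. Pam (1.34), Cpg (1.49) and Grd (1.39) gave similar values and Pic gave -0.18, so that Lps exceeded Pic by 1.62 ± 0.06 (adjusted p 3.5e-29 in limma). Slc25a33, a pyrimidine nucleotide carrier, rose late with Lps (1.39), Pam (1.60), Cpg (1.23, lost against the Control arrays of the same times at 0.91) and Grd (1.49), and with Pic it read 0.61. Slc25a37, mitoferrin, which brings iron into mitochondria, rose late with every ligand, from 1.36 with Cpg to 1.90 with Pam, on the probe set used here. Its other probe set read -1.46 in the middle window and -0.22 in the late window of Lps, so the rise depends on the probe set, and the mean of its probe sets was called with none of the ligands (0.50 to 0.99 late). Against the Control arrays of the same times the late calls with Pic (0.79), Cpg (0.57) and Grd (0.98) were lost.

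Of the falling pair, Slc25a30, whose role is poorly known, fell first. In the early window of Lps it read 77.3, 90.6 and 119.5, against 221.8 ± 53.1 on the Control arrays (SD, n = 8), a difference of -1.21 ± 0.09. With Lps it then read 63.7, 69.9 and 97.5 in the middle window, again below every Control array. Pic gave -1.01 early and -1.10 in the middle window, and Pam -1.08 early and -0.16 in the middle window. The early calls were lost against the Control arrays of the same times, at -0.83 for Lps, -0.33 for Pic and -0.75 for Pam. The mean of its probe sets ended all 5 calls, the middle ones at -0.97 for Lps and -0.64 for Pic, and centring also ended the middle call with Pic (-0.96). Slc25a36, another pyrimidine nucleotide carrier, fell in the middle window of Lps by 1.01 on the log2 scale, near the threshold, and its call was lost with centring (-0.76). Abundant carriers of the inner membrane, among them the phosphate carrier Slc25a3 and the ADP/ATP carriers Slc25a4 and Slc25a5, were called in no window.

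The member of the nucleoside class that rose was Slc28a2, a sodium-driven importer of purine nucleosides and uridine. With Lps it read 86.2, 269.8 and 442.6 in the middle window, against 21.6 ± 3.2 on the Control arrays (SD, n = 8, up to 29.3), a difference of 3.28 ± 0.08 (adjusted p 1.9e-38 in limma). Late Lps arrays read 121.5, 320.8 and 451.5 (3.52), and no Lps array of either window overlapped the Control arrays. Middle and late differences were 2.93 and 3.15 with Cpg, 1.97 and 3.09 with Pic and 1.76 and 2.77 with Grd, whereas Pam gave 0.12 and 0.42. Pam arrays reached 35.6 at most, at 16 h. With Grd the 4 h arrays, at 25.4 and 20.5, still lay among the Control arrays, whereas Lps arrays already read 86.2 and 92.3.

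The equilibrative nucleoside carrier Slc29a3, which serves lysosomes, fell late with Pam by 1.02 on the log2 scale and read 0.94 with Pic. The Pam call sat near the threshold and was lost under several alternatives, but the difference between Pic and Pam late was 1.96 ± 0.07 (adjusted p 1.1e-31 in limma). Slc35c1, the Golgi importer of GDP-fucose, fell in the middle window of Lps (-1.11, lost with centring at -0.86) and read 0.32 with Pam. Slc35a5, a relative of the nucleotide sugar carriers, fell early with Pam (-1.06), a value that 1 of the 2 h arrays carried and that became -0.80 without it. The plasma membrane carrier Slc29a1 and the other 11 members of the class were called in no window.

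Copper and zinc carriers made up most of the metal rises. Slc31a2, a relative of the main copper importer, rose with all 5 ligands. Its late intensities were 1299.7, 1390.9 and 1799.5 with Grd, against 380.2 ± 62.1 on the Control arrays (SD, n = 8), a difference of 1.93 ± 0.09 (adjusted p 1.9e-25 in limma). The late differences were 1.89 with Lps, 1.44 with Pic, 1.53 with Pam and 1.81 with Cpg. Middle-window differences ran from 1.05 with Pic to 1.65 with Cpg, and that of Pic was lost against the Control arrays of the same times (0.86). Slc31a1, the high-affinity copper importer, rose in the middle and late windows of Lps (1.02 and 1.56), Pam (1.45 and 1.46), Cpg (1.32 and 1.43) and Grd (1.53 and 1.73). With Pic it read 0.40 and 0.39, and late Pic lay below Grd by -1.34 ± 0.07. Second probe sets gave 1.58 for Slc31a1 and 1.44 for Slc31a2 in the late window of Grd, and with the mean of its probe sets the middle call of Slc31a1 with Lps was lost (0.77).

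Slc39a14, which imports zinc and non-transferrin iron, peaked at 2 or 4 h with Lps, Pam, Cpg and Grd. With Pam it read 378.1 and 432.5 at 4 h and 235.9 to 432.5 over the middle window, against 62.3 ± 19.4 on the Control arrays (SD, n = 8), a difference of 2.40 ± 0.13 (adjusted p 1.3e-22 in limma). Middle differences were 1.61 with Grd, 1.35 with Lps, 1.02 with Cpg and -0.41 with Pic. By 16 h the Lps arrays read 55.3 and 49.4, within the Control range, while the Pam arrays read 158.0 and 152.7. The Cpg call rested on the 4 h arrays and became 0.61 without them. Slc39a4, a zinc importer best known from the gut, rose late with Pam (1.82) and Grd (1.29). It also read higher on later Control arrays, with 187.0 at 24 h and 75.1 at 0 h. Against the Control arrays of the same times its differences were 0.91 and 0.22, so neither call held.

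Slc41a1, a magnesium transporter, made a short early peak. With Cpg its arrays read 78.3 and 77.1 at 0.5 h, 471.4 and 358.4 at 1 h, 328.2 and 341.5 at 2 h and 165.7 and 165.5 at 4 h, against 88.2 ± 11.1 on the Control arrays (SD, n = 8). With Pam they read 277.9 and 212.2 at 1 h and 303.3 and 276.4 at 2 h. Lps arrays reached 333.6 and 294.1 only at 2 h, and Pic and Grd arrays at 2 h read 85.0 and 89.4, and 102.1 and 100.5. The early differences were 1.32 ± 0.08 with Cpg and 1.12 ± 0.08 with Pam, and Cpg exceeded Grd by 1.21 ± 0.08 and Pam exceeded Grd by 1.00 ± 0.08 (adjusted p 9.8e-17 and 1.4e-13 in limma). Without the 1 h arrays the differences were 0.88 with Cpg and 0.95 with Pam, and neither was called. Slc30a5, which loads zinc into the secretory pathway, was the only metal member called lower, with Pic in the middle window (-1.17) and late (-1.01, lost with centring at -0.91). Zinc exporters Slc30a4, Slc30a6, Slc30a7 and Slc30a9 and importers Slc39a1, Slc39a6, Slc39a7 and Slc39a11 were called in no window.

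Slc20a1, a sodium-driven phosphate importer, came close to an early call against the mean of all 8 Control arrays. Its early differences were 1.00 with Pam, 0.83 with Lps, 0.83 with Grd, 0.75 with Cpg and 0.50 with Pic, just under the threshold of 1 for Pam. The Control arrays themselves read 667.6, 656.0 and 751.4 at 0, 1 and 2 h, and 432.1 to 548.3 from 4 h on. The mean of all 8 lies below these first readings, which enlarges the early differences. By the middle window the ligands parted, to 0.73 with Pam and -0.80 with Pic, a gap of 1.54 ± 0.07 between them (adjusted p 8.2e-26 in limma). Pam arrays read 970.7 and 931.7 at 4 h and Pic arrays 404.8 and 373.3, against 574.9 ± 106.3 on the Control arrays (SD, n = 8).

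Of the 4 sugar and carboxylate carriers, 3 fell in the middle window, and the sugar carrier Slc50a1 was not called. Slc37a2, a sugar-phosphate exchanger abundant in macrophages, read 54.3, 66.6 and 68.6 in the middle window of Lps, against 203.2 ± 68.6 on the Control arrays (SD, n = 8), a difference of -1.58 ± 0.12 (adjusted p 1e-16 in limma). Cpg (-1.64), Pam (-1.62), Grd (-1.58) and Pic (-1.15) lowered it as well, with no overlap between ligand and Control arrays in any of these middle windows. No late window was called, and late differences ran from -0.72 with Pam to 0.24 with Pic. Slc16a6, of the monocarboxylate family, read 20.6, 24.4 and 37.8 in the middle window of Lps, near the floor, against 94.1 ± 25.6 on the Control arrays, a difference of -1.72 ± 0.12. It fell with Cpg (-1.48), Grd (-1.44) and Pic (-1.30) too and stayed low late with Lps (-1.46) and Pic (-1.28). The Pam difference of -0.91 did not pass. Slc37a4, which brings glucose 6-phosphate into the endoplasmic reticulum, fell in the middle window of Cpg (-1.15) and Lps (-1.11), and both calls were lost with centring (-0.96 and -0.86).

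Among inorganic ion carriers, Slc12a7, a potassium-chloride cotransporter, had the lowest mean difference over the 15 windows of all members, at -0.77. With Cpg it read 26.5, 28.2 and 35.1 in the middle window, against 91.5 ± 15.7 on the Control arrays (SD, n = 8), a difference of -1.60 ± 0.10 (adjusted p 1.7e-20 in limma). It fell in that window with Grd (-1.35), Lps (-1.31) and Pam (-1.21), and Pic gave -0.77. A second probe set of Slc12a7 lay at the floor, and the mean of both ended each of its 6 calls (-0.59 to -0.82). Slc8b1, a sodium-calcium exchanger of the mitochondrial membrane, fell in the middle window of Lps (-1.13), a call that rested on the 4 h arrays and became -0.79 without them. The chloride cotransporters Slc12a4 and Slc12a9, the anion exchanger Slc4a2, and Slc9a3r1, which despite its symbol is a scaffold protein of sodium-proton exchangers, were called in no window.

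The promoter of Slc12a7 is shown as that of the member with the lowest mean, and it holds CACGTG, the E-box word bound by MYC and TFEB family factors. The word stood in promoters of 12 members, in 12.3% of member promoters and 7.15% of all promoters of that length on either strand. Besides Slc12a7 these members were Slc12a9, Slc20a1, Slc25a13, Slc25a33, Slc25a36, Slc29a1, Slc30a5, Slc31a2, Slc33a1, Slc35a5 and Slc39a11, among which some rose, some fell and some were not called. The fourth word searched, TGATGNAA, bound by ATF4 with its partners, stood in promoters of 2 members, Slc50a1 and Slc7a7, neither of which was called, and in 2.83% of member and 3.97% of all promoters. The window, chr13:73763410-73763709 on the plus strand of GRCm38.p6 (RefSeq), is 1 of 2 overlapping windows for the gene, and capitals mark CACGTG. A match of letters is a description and shows no binding.
Slc12a7: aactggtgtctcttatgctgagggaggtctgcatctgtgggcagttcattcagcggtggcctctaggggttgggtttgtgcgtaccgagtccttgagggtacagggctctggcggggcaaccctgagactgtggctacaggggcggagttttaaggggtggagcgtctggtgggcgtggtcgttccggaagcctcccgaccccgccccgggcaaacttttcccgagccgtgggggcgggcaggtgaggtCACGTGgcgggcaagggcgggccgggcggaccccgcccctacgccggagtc

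Lipid and heme carriers split. Slc27a3, an acyl-CoA synthetase of the fatty acid transport family, fell in the middle window with Cpg (-1.60 ± 0.12), Pam (-1.48) and Lps (-1.19, lost with centring at -0.95), and with Pic it read 0.25. At 4 h the Cpg arrays read 22.4 and 21.9 and the Pic arrays 139.1 and 113.1, against 112.8 ± 29.8 on the Control arrays (SD, n = 8). Pic exceeded Cpg by 1.84 ± 0.12 in that window (adjusted p 1.3e-18 in limma). Slc48a1, the heme exporter of endosomes and lysosomes, rose late with Pam (1.09) and Cpg (1.01), with Grd at 1.00 and Lps at 0.88 just under the threshold, and the mean of its probe sets was not called (0.86 and 0.65). With plate column as a block the Cpg call was lost (0.98). Slc66a1, a lysosomal exporter of cationic amino acids, and its relative Slc66a2 fell in the middle window of Lps, by 1.01 and 1.33 on the log2 scale, and the call of Slc66a1 was lost with centring (-0.76).

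**Figure D4:**
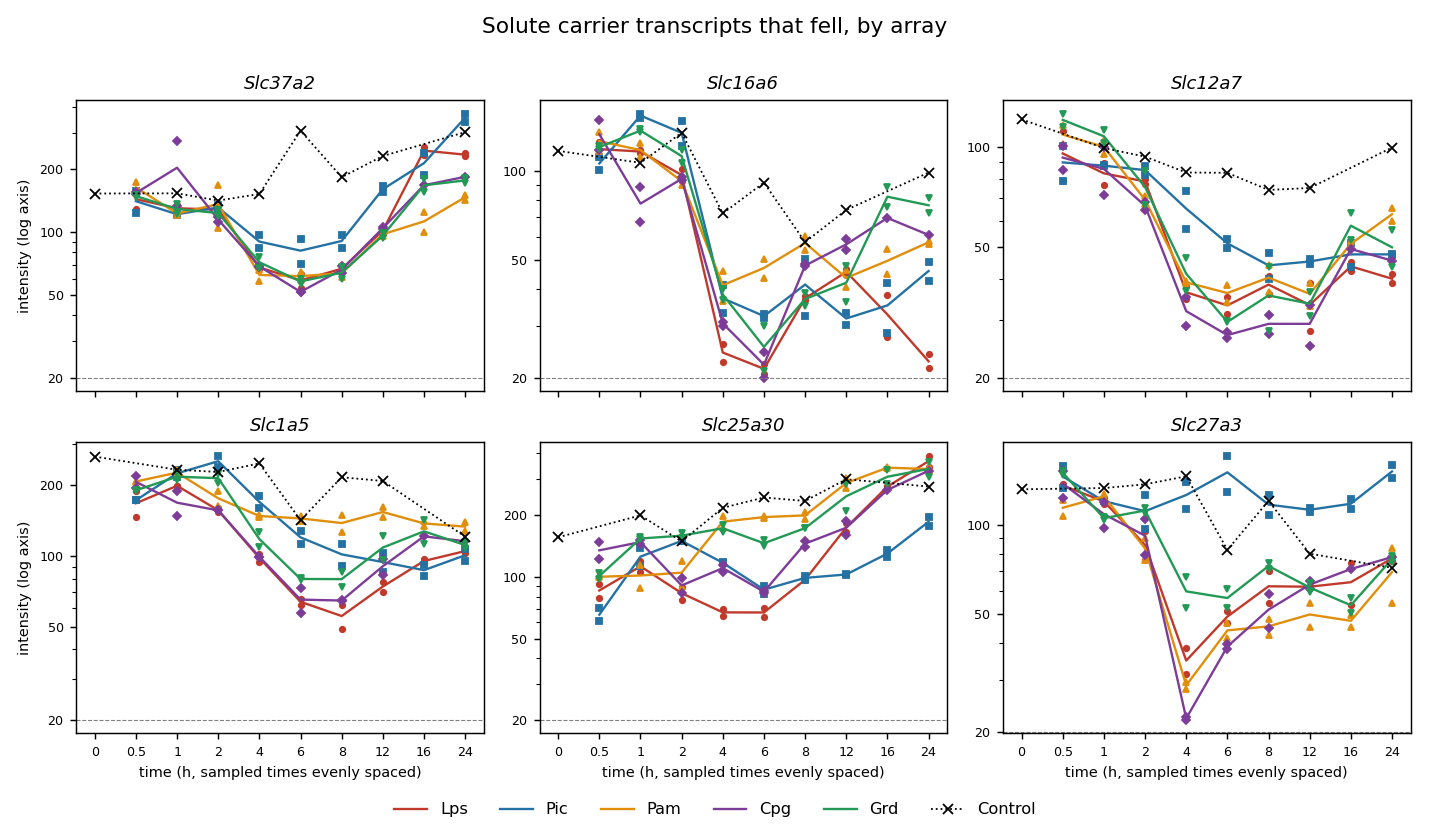
Intensity (log axis) of 6 solute carriers that fell, against time (sampled times evenly spaced), with a point per array and a line through the mean of each ligand, and crosses for the single Control arrays. The dashed line is the floor of 20. Lines of most ligands part from the Control crosses between 2 and 4 h, Slc27a3 stays at the Control level with Pic, and Slc37a2 returns by 24 h.

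The 5 ligands were then compared with each other, by a moderated F test in the same model and a gap of at least 1 between the highest and the lowest ligand mean. In the middle window 21 of the 90 members differed, against 11.6% of all items and 15.7% of those above 100. In the late window 17 members did, against 10.1% and 13.9%. Of the 79 members above 100 on a Control array, 14 differed in the middle window and 10 late. Of the 11 above 100 only in stimulated cells, 7 differed in each window. Slc28a2, Slc39a14, Slc6a4, Slc1a2 and Slc6a13 are among these 11, so the rule took them in through arrays of ligands that raised them. The differences between ligands do not use the Control levels, but the spread of the Control arrays enters the shared variance. The widest middle gaps were those of Slc28a2 (3.16), Slc39a14 (2.81), Slc6a4 (2.61), Slc1a2 (2.53) and Slc25a22 (2.19), and the widest late gaps were those of Slc6a4 (3.31), Slc28a2 (3.11), Slc6a13 (2.43), Slc1a2 (2.17) and Slc39a14 (2.02). Pic or Pam held an extreme mean in each of these 10 gaps. Pam was lowest for Slc28a2, where Lps exceeded it by 3.16 ± 0.09 in the middle window, and for Slc25a22, where Pic exceeded it by 2.19 ± 0.07. Pic was lowest for Slc1a2, which Pam exceeded by 2.53 ± 0.07 in the middle window, and for Slc6a13, by 2.43 ± 0.11 late. Pic and Pam also stood at opposite ends for Slc6a4, by 2.61 ± 0.10 in the middle window and 3.31 ± 0.10 late, and for Slc39a14 the other way round, by 2.81 ± 0.14.

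Members without a called window against Control also took part. Slc12a9 differed by 1.20 and Slc25a28, a second mitoferrin, by 1.03 in the middle window, each highest with Pic (0.60 and 0.54) and lowest with Pam (-0.60 and -0.50). Slc15a4 differed late, where Pic exceeded Lps by 1.05 (given as Lps minus Pic, -1.05 ± 0.12). Slc7a2 differed in both windows, where Lps exceeded Pic by 1.62 ± 0.27 and 1.75 ± 0.27.

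Between the middle and late windows, averaged over the ligands, 5 members were called higher late (1.08% of all items) and 0 lower (1.27% of all items). These were Slc6a13 (1.60 ± 0.05), Slc37a2 (1.23 ± 0.06), Slc39a4 (1.22 ± 0.06), Slc25a37 (1.17 ± 0.07) and Slc25a33 (1.16 ± 0.04). This comparison does not subtract the Control arrays. On those, Slc39a4, Slc25a37, Slc25a33 and Slc6a13 also read higher at 12 and 24 h than at 4, 6 and 8 h. Slc37a2 read higher there than at 4 and 8 h, but not than at 6 h. How much of each difference goes with the Control arrays was not tested. The call of Slc25a37 was lost with the mean of its probe sets (0.97) and that of Slc25a33 with log2(value + 16) (0.99).

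The Control arrays differed along their sampling times as well. On the 8 Control arrays alone, a slope on log2(hours + 1) called 4 members higher (1.28% of all items) and 1 lower (1.97% of all items) from 0 to 24 h. Slc25a37 rose by 1.51 ± 0.32, Slc39a4 by 1.39 ± 0.25, Slc15a4 by 1.06 ± 0.18 and Slc44a2, a choline carrier, by 1.00 ± 0.24, with adjusted p of 0.04, 0.038, 0.036 and 0.045 in limma. Slc7a8 fell by 1.26 on the log2 scale, to 63.7 on the 24 h array, against 156.5 on the 0 h array. Slc46a3, a lysosomal carrier, exceeded 100 on a single array, the Control array at 24 h (145.5), and is a member through it alone. With 1 array at each time these slopes rest on few arrays, and leaving out 1 array gave 0 to 6 called members.

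Few of the Slc genes below the level of the rule were called. Of the 55 measured genes that never exceeded 100, 1 was called higher, the zinc exporter Slc30a1 in the middle window of Pic (1.38), and 3 were called lower, Slc16a1, Slc19a2 and Slc25a15. Over all items tested, 11.1% were called higher and 12.7% lower. A gene that a ligand raised past 100 would have been a member, so the rule itself limits the rises among these 55. Low intensity leaves less room above the floor for a fall, and these shares were not tested against those of the members. The same all-item shares, 11.1% higher and 12.7% lower, stand beside the lists that follow, which are short and were not tested as sets. Of 23 measured ATP-driven Abc transporters 4 were called higher, Abcb1a, Abcc5, Abcb4 and Abcc1. Lower was 1, Abcd2, a peroxisomal fatty acid carrier (-1.98 in the middle window of Lps). Of the 3 measured Slco genes, the organic anion carriers, Slco3a1 was called higher, by 4.33 in the middle window of Lps. Among 16 listed partners and regulators of solute carriers, the kinases Wnk1 and Stk39, which act on cation-chloride cotransporters, were called higher (1.18 and 2.10 in the middle window of Lps). Emb, an ancillary protein of monocarboxylate carriers, the metallothionein Mt1, the membrane linker Ezr and the lysosomal regulator Tfeb were called lower, at -1.47 in the late window of Pic for Emb -1.63 in the late window of Cpg for Mt1, -1.58 in the late window of Grd for Ezr and -1.21 in the middle window of Lps for Tfeb.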

How the data were processed

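The arrays hybridised biotin-labelled total RNA, 1 colour, and per the submitters' processing notes were processed with RMA. The authors' deposited table gives intensity values for 18858 probe sets on a linear scale with a floor of 20, which held 33.1% to 34.6% of values on each array. The floor and the return from RMA's log scale are not explained in the sources used here, and the floor shrinks differences of dim genes. No count lies behind these values, and the number of arrays limits the precision.

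Probe sets took symbols from the platform annotation: 15044 had 1 symbol, 257 several and 3557 none, and 15024 matched RefSeq (GRCm38.p6). After dropping 4409 probe sets that never left the floor, the probe set of highest mean per gene gave 7741 genes and 2802 unnamed probe sets. Arrays were grouped by title. limma 3.58.1 in R 4.3.3 was fitted to log2(value + 1) with 1 mean per ligand and time and 1 for Control, leaving 50 residual degrees of freedom. It was tested on simulated data. The groups' median SD for members was 0.141. Pairs of ligands were contrasts of the same fit, adjusted over all items for each pair.

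The members, transporter classes, windows and lists were chosen with earlier results of these data known. Members named by rule (29) were the 3 widest called rises and falls in each window whose arrays all lay on 1 side of the Control mean, the 5 widest for each ligand test, the 3 widest each way over time, up to 2 per class, and the genes next to 100. The other 13 members called in a window, those listed as not called, Slc12a9, Slc25a28 and Slc44a2, and the 9 and 6 genes plotted over time were chosen after their values were seen. Proteins, planned at first, were not used here; the promoters shown are of the member with the lowest mean difference and of members that alone held a word. The closing section gives the alternatives.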

Additional observations from a re-analysis of the deposited data

Results flagged for a closer look

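In 3 of the 42 members tested, 1 Control array stood apart from the other 7 by Dixon's criterion (chance flags about 1 in 20): Slc28a2 on the 6 h array (29.3), Slc46a3 on the 24 h array (145.5) and Slc37a4 on the 8 h array (115.8). Leaving that array out left the calls of Slc28a2 and Slc37a4 in place.

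The widest differences between ligands, tested by limma's moderated F test, are set out here with the gap between the highest and the lowest ligand mean on the log2 scale. In the middle window the gaps were 3.16 for Slc28a2 (adjusted p 4.4e-36), 2.81 for Slc39a14 (4.4e-23), 2.61 for Slc6a4 (2.8e-29), 2.53 for Slc1a2 (5.6e-38) and 2.19 for Slc25a22 (5.1e-33). In the late window they were 3.31 for Slc6a4 (1.6e-33), 3.11 for Slc28a2 (4.5e-36), 2.43 for Slc6a13 (2.4e-28), 2.17 for Slc1a2 (3.2e-36) and 2.02 for Slc39a14 (9e-18). All of these members but Slc25a22 exceeded 100 only in stimulated cells.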

How the results depend on the processing

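Total counts, higher plus lower, in the middle and late windows and between ligands stayed within 1.5 times under every alternative run, and no called difference changed sign. Centring moved some lower counts, among them to 6 in the middle window of Lps (12 in the report), 3 in that of Pic (5) and 1 in the late window of Pic (3). Early counts, which are small, moved. Against a Control trend the early counts of members were 0 for Lps (2 in the report), 0 for Pic (1), 1 for Pam (4) and 0 for Grd (1), and against the Control arrays of the same times 1, 0, 2 and 0. Without the 0.5 h arrays they were 4 for Lps, 8 for Pam, 6 for Cpg (3 in the report) and 3 for Grd, and without the 2 h arrays 1 for Pam and 0 for Grd. The mean of a gene's probe sets gave 1 for Lps and 2 for Pam, log2(value + 16) gave 0 for Pic and 2 for Pam, and centring gave 0 for Pic. The Control trend count of 5 became 3 with log2(value + 16), 9 with centring, 0 with no filter on low values and 11 over items above 100 only. Leaving out 1 array at a time gave 0 to 1 for Pic early, 3 to 6 for Pam early, 0 to 1 for Grd early, 0 to 6 for the Control trend and 21 to 25 for the middle window of Lps.

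Of 168 called results on single members, 106 held under every alternative. The mean of probe sets ended 29, log2(value + 16) 28, the Control arrays of the same times 25, the Control trend 19 and centring 16. Plate column as a block for Cpg against Control, chosen after seeing the data, in a fit of 1 mean per Cpg window, gave totals of 3 early, 18 middle and 14 late members, the same totals as in the report, and ended 1 of 35 calls on single members (Slc48a1 late, 0.98). The replicate block changed no call. Differences between replicates correlated over 0.1 in 157 of 903 pairs of groups (median 0.008, from -0.328 to 0.349). These figures pool pairs within and between ligands. In sample order, each pass over the plate columns held a single replicate number of Lps, Pic, Pam or Grd. Within these ligands replicate number therefore goes with pass, and whether it pairs the arrays of a ligand was not tested. With the replicate block the middle window of Lps had 24 called members.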
